A study of Homo sapiens with 4 samples.

Results

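The nucleosome organization of 10 catecholamine and secretory granule genes was examined before and after MYCN knockdown in neuroblastoma cells. The 10 genes, TH, DDC, DBH, GCH1, SLC18A1, SLC18A2, SLC6A2, CHGA, CHGB and NPY, were taken from a list of names that was drawn up with earlier results of these data known, and the rule used no measured value. All 10 were found among the 20163 protein-coding genes of the annotation on GRCh37 (hg19), each with a canonical transcription start site (TSS). No other protein-coding gene lay within 2 kb of any of these TSSs.

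Sympathetic neurons, chromaffin cells and the neuroblastomas that arise from their lineage make catecholamines. Tyrosine is hydroxylated to DOPA, DOPA is decarboxylated to dopamine, and dopamine is carried into secretory granules, where it is converted to noradrenaline and stored with chromogranins and peptides until release. The cAMP response element (CRE) is a classical control element in the promoters of several genes of this pathway.

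BE(2)C is a widely used human neuroblastoma line that carries many copies of MYCN. The control group was BE(2)C cells given non-targeting siRNA, with the genotype labelled wild type, and the knockdown group was the same cells given siRNA to MYCN. Both groups received 80 nM siRNA with Lipofectamine 2000 per the labels and were collected on the day after, whereas a lower final concentration is stated in the study's methods. Each group had 2 libraries of mononucleosomal DNA from crosslinked nuclei treated with MNase (micrococcal nuclease), an enzyme that cuts linker DNA. The model is therefore a short, transient knockdown in 1 cell line, and nothing in the labels says that the 2 libraries of a group came from separate cultures. The study's methods call them biological replicates. The p-values measure the spread between these libraries only, which may be technical.

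The called nucleosomes held 147370973 to 242544884 reads per library, with replicate 2 deeper than replicate 1 in both groups and a median of 12 reads per nucleosome in both replicate 1 libraries and 18 in both replicate 2 libraries. A site without a called nucleosome can thus still hold up to 5 read-pair midpoints, since nucleosomes with fewer than 6 were left out by the authors. MNase-seq measures no transcripts and gave no check of the knockdown. The MYCN promoter, as a check of the cell line, held 89.5 to 118 times the reads of the median promoter in all 4 libraries, and its log2 change upon knockdown was 0.05.

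Within 2 kb of the 10 TSSs, 169 nucleosomes were called in control 1, 181 in control 2, 164 in knockdown 1 and 174 in knockdown 2. Each nucleosome is given by its dyad, the midpoint of its 147 bp, as a distance from the TSS (negative values are upstream). The numbers of nucleosomes followed the order of depth within each group, and no gene had fewer than 13 or more than 20 in any library.

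**Figure D1:**
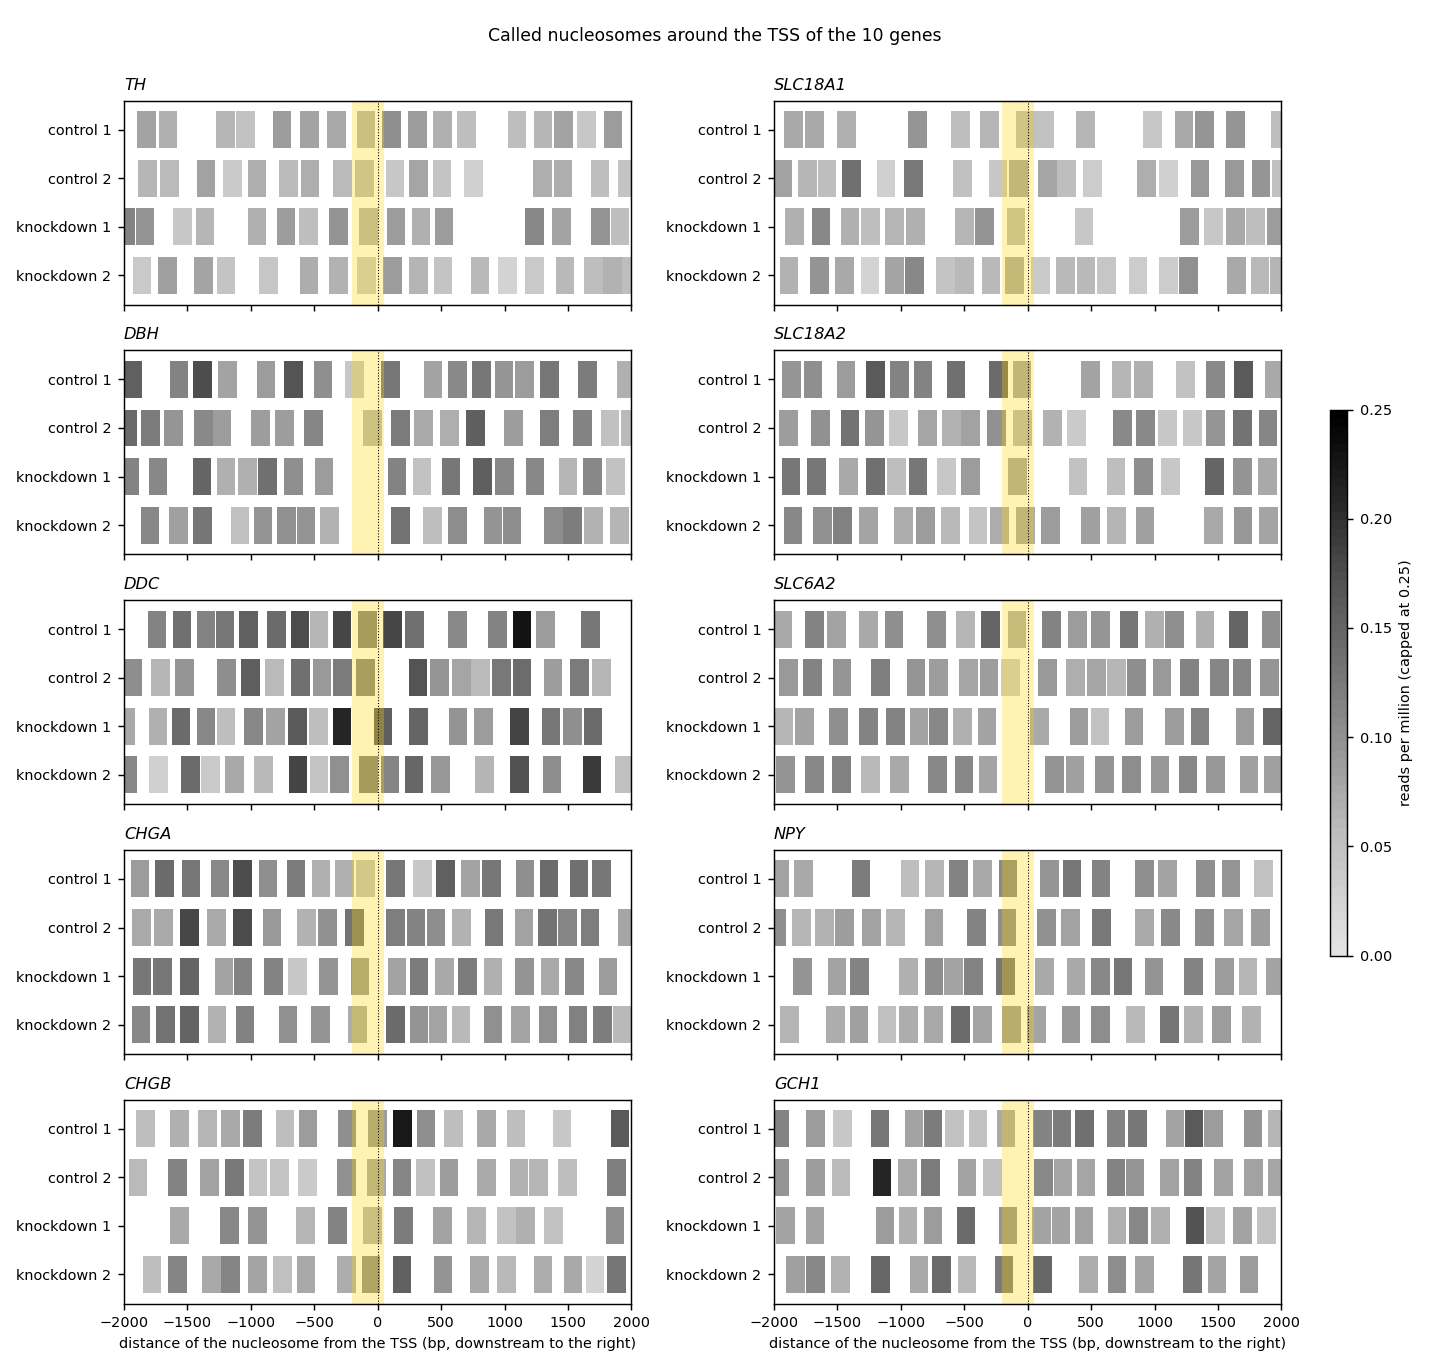
Called nucleosomes within 2 kb of the TSS of the 10 genes. Each box is a nucleosome of 147 bp at its distance from the TSS (x axis, bp), each line of boxes is a library, the shade is its level in CPM (reads scaled to the library total), and the yellow band runs from 200 bp before to 50 bp after the TSS. TH, CHGB, SLC18A1 and SLC18A2 have a box inside the band in all 4 libraries, and SLC6A2 has one in the 2 controls only.

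The stretch between 200 bp before and 50 bp after the TSS, the canonical nucleosome-free region (NFR) window, was read in each library. It was called occupied when at least 80% of a nucleosome lay inside it. The window was occupied at 8 of the 10 genes in control 1, 7 in control 2, 6 in knockdown 1 and 6 in knockdown 2. The same call was made at 41.6%, 47.4%, 39.7% and 47.9% of the 20079 promoters that had reads near the TSS in every library. TH, CHGB, SLC18A1 and SLC18A2 were occupied in all 4 libraries (4 of 10, beside 19.9% of all promoters), and none of the 10 was free in all 4 (beside 32.3%). At 5 genes, DDC, GCH1, CHGA, NPY and DBH, the state differed between libraries of the same group. No gene was free in both controls and occupied in both knockdown libraries (beside 2.21%), and only SLC6A2 was occupied in both controls and free in both knockdown libraries (beside 2.41%).

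The enzymes were taken first. TH encodes tyrosine hydroxylase, the rate-limiting enzyme of catecholamine synthesis (ENSG00000180176.15_9, chr11:2185159-2193045, minus strand, TSS at 2193045). Near its TSS, TH had nucleosomes at similar distances in every library. Farther out there were holes, with no dyad called between 522 and 1235 bp in knockdown 1 and between 755 and 1299 bp in control 2. The nucleosome in the window had its dyad at -93 in control 1, -104 in control 2, -74 in knockdown 1 and -90 in knockdown 2, with 9, 13, 9 and 8 reads. The first nucleosome downstream of the TSS lay at 109, 135, 143 and 118 bp, in the same order of libraries. The next downstream nucleosome lay at 315, 319, 342 and 320 bp, and the one after it, in an intron, at 510, 507, 522 and 513 bp. The groups overlapped at the first of these downstream positions. In the window and at the other 2 downstream positions, both knockdown dyads lay downstream of both control dyads, by 1 to 3 bp where the groups came closest. An upstream nucleosome went the other way, at -536 and -533 in the controls and -547 and -541 in the knockdown libraries. No test was made of these shifts, and the share of such separations over all promoters was not counted. The intron nucleosome differed by at most 15 bp over the 4 libraries.

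DDC encodes the aromatic amino acid decarboxylase that makes dopamine (ENSG00000132437.18_11, chr7:50526134-50633102, minus strand, TSS at 50633102). It had the highest promoter level of the 10 genes in both controls and in knockdown 1, while in knockdown 2 CHGA was as high. The window held 17 reads at dyad -81 in control 1, 27 at -98 in control 2 and 28 at -73 in knockdown 2. Knockdown 1 was called free, and its nearest dyads were at -281, with 31 reads, and at 41, with 23 reads. In the state of the window, knockdown 2 was thus like both controls and unlike knockdown 1. In the distance between the flanking dyads it was not, with 198 and 416 bp in the controls and 322 and 230 bp in knockdown 1 and 2.

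DBH encodes dopamine beta-hydroxylase, the granule enzyme that makes noradrenaline (ENSG00000123454.12_7, chr9:136501485-136524451, plus strand, TSS at 136501485). Control 1 had a nucleosome of 6 reads, the lowest count kept, at -186, and control 2 had one of 14 reads at -41. Neither knockdown library had a dyad near the window, and the flanking dyads were at -423 and 151 in knockdown 1 and at -380 and 180 in knockdown 2. The distance between the dyads that flank the point 75 bp upstream of the TSS, called the gap here, was 286 bp in control 1, 464 bp in control 2, 574 bp in knockdown 1 and 560 bp in knockdown 2. Both knockdown gaps were wider than both control gaps. In control 2 the gap ran from -505 to -41, upstream of the nucleosome in the window, and in the other libraries it spanned the TSS. DBH was not counted as a formed NFR under the 80% rule, because the nucleosome of control 1 lay only partly inside the window.

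GCH1 encodes GTP cyclohydrolase, the first enzyme for the tetrahydrobiopterin cofactor of TH (ENSG00000131979.20_9, chr14:55308726-55369544, minus strand, TSS at 55369544). Its window was free in control 1, control 2 and knockdown 2, and knockdown 1 held a nucleosome of 14 reads at -155. Dyads at -171 in control 1 (11 reads) and -187 in knockdown 2 (30 reads) reached into the window with less than 80% of their length. The first downstream nucleosome, over the first exon, lay between 106 and 126 bp in the 4 libraries. An upstream nucleosome at -1673, -1675, -1678 and -1675 was the most constant position found at the 10 genes, within 5 bp over the 4 libraries.

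The transporters follow. SLC18A2 encodes VMAT2, the monoamine transporter that fills granules in neurons (ENSG00000165646.14_9, chr10:119000604-119038941, plus strand, TSS at 119000625). Its window was occupied in every library, by 11 reads at -46 in control 1, 14 at -44 in control 2, 11 at -82 in knockdown 1 and 18 at -19 in knockdown 2. The 2 control dyads were 2 bp apart, and the knockdown dyads lay on either side of them. SLC18A1 encodes VMAT1, the transporter known from chromaffin cells (ENSG00000036565.15_13, chr8:20002366-20040717, minus strand, TSS at 20040647). Its window held 8, 18, 8 and 17 reads in the order given above, at -20, -72, -94 and -103. SLC18A1 had the shallowest promoter of the 10 genes in control 1, with 93 reads in all, so a missing nucleosome there rested on very few reads.

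SLC6A2 encodes the noradrenaline transporter that takes the transmitter back up (ENSG00000103546.19_12, chr16:55689900-55741557, plus strand, TSS at 55689900). Control 1 had a nucleosome of 10 reads at -85, and control 2 had one of 8 reads at -137. No knockdown library had a nucleosome between the flanking dyads at -321 (12 reads) and 91 (11 reads) in knockdown 1, and at -314 (19 reads) and 211 (23 reads) in knockdown 2. The gap was 274 bp and 291 bp in the controls and 412 bp and 525 bp in the knockdown libraries. Both control values were below both knockdown values. The nucleosomes that made the difference were shallow, and the call was lost when nucleosomes needed 10 or more reads or when the libraries were thinned to equal depth.

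CHGA and CHGB encode chromogranins A and B, the acidic proteins that form the granule matrix. At CHGA (ENSG00000100604.13_8, chr14:93389495-93401630, plus strand, TSS at 93389495) the nucleosome upstream of the TSS lay at -96 in control 1 (7 reads), -181 in control 2 (32 reads), -141 in knockdown 1 (13 reads) and -162 in knockdown 2 (17 reads). The 2 controls lay outside the range of the 2 knockdown libraries, on either side of it. The first downstream nucleosome was at 142, 140, 152 and 140 bp, over the first exon. CHGA held 5 nucleosomes whose dyads stayed within 20 bp in all 4 libraries, the largest number among the 10 genes.

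At CHGB (ENSG00000089199.10_9, chr20:5892156-5905999, plus strand, TSS at 5892156) the nucleosome at the TSS had its dyad at 0 in control 1 (13 reads), -12 in control 2 (18 reads), -40 in knockdown 1 (9 reads) and -54 in knockdown 2 (24 reads). Both knockdown dyads were upstream of both control dyads. No test was made of this shift, and the share of such separations over all promoters was not counted. The nucleosome next to it, at 194, 191, 201 and 192 bp, stayed within 10 bp. It held 33, 27, 18 and 37 reads, and the groups overlapped.

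NPY encodes neuropeptide Y, a peptide stored and released with noradrenaline (ENSG00000122585.8_6, chr7:24323807-24331481, plus strand, TSS at 24323809). Its upstream nucleosome had dyads at -156, -165, -174 and -126 in the order control 1, control 2, knockdown 1, knockdown 2, with 16, 25, 19 and 21 reads. It was called inside the window in control 1 and knockdown 2 only, although the dyads of all 4 libraries lay between -174 and -126. The gap was 325 and 311 bp in the controls and 307 and 194 bp in the knockdown libraries. NPY was thus the only gene of the 10 with a narrower gap in both knockdown libraries than in both controls, whereas DBH, SLC18A2 and SLC6A2 had a wider one. The SLC18A2 gap was 187 and 201 bp in the controls and 478 and 205 bp in knockdown 1 and 2. In knockdown 1 it ran from -82 to 396, downstream of the nucleosome in the window, and in the other libraries it lay upstream of that nucleosome. On the downstream side control 1 had dyads at -46 and 494, so SLC18A2 showed no opening of the window. The background over all promoters was 14.0% for narrower and 16.2% for wider.

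Sequence elements were searched on both strands in 300 bp around each TSS, from -250 to 49. The full CRE, TGACGTCA, was found at 4 of the 10 genes, TH, SLC18A2, CHGA and CHGB, and in 2.68% of all 20163 promoters. The MYC-type E-box CACGTG was found at none of the 10 and in 8.74% of all promoters, and TATAAA was found at none of the 10 and in 9.80%. CCAAT was found at DBH, GCH1 and SLC18A1 and in 35.9% of all promoters. The GC box GGGCGG was found at 7 of the 10 and in 60.9%. None of these motifs contains another, and 2 copies of the GC box overlapped each other at SLC18A2.

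The CRE lay from -45 to -38 at TH and from -48 to -41 at SLC18A2. At both genes it was under a nucleosome in all 4 libraries, which was so for 6.21% of the 564 CRE copies in all promoters. At SLC18A2 the CRE was close to the dyad in both controls, 1.5 bp from it in control 1 and 0.5 bp in control 2, and the distance was 37.5 bp and 25.5 bp in the knockdown libraries. At TH the distances were 51.5, 62.5, 32.5 and 48.5 bp. At CHGA the CRE, from -54 to -47, was covered in control 1 alone. At CHGB it lay from -107 to -100, outside the nucleosome at the TSS in both controls and under it in both knockdown libraries. CHGB was singled out here after its values were seen. The same state was found for 5 of the 564 copies (0.887%) and the opposite state for 3 (0.532%), and 60.6% of the copies were under a nucleosome in no library.

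Promoter occupancy was compared next, to ask whether reads in called nucleosomes changed upon MYCN knockdown. The promoter was taken to run from 2 kb before to 1 kb after the TSS. None of the 10 promoters passed the test. The edgeR quasi-likelihood test over all 20106 promoters with a mean of at least 10 reads called no promoter at an adjusted p under 0.05 (0%), and 634 (3.15%) had an unadjusted p under 0.05. DESeq2 also called none, with 210 promoters at an unadjusted p under 0.05. None of the 10 genes was among the 634, and all 10 had an adjusted p of 0.999 by edgeR. Levels below are promoter CPM after TMM scaling, over windows of equal length. Here reads were scaled to the summed promoter reads of each library, not to the library total. These levels are therefore on another scale than the CPM of single nucleosomes.

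The enzymes gave these levels. TH had 39.0 in control 1, 33.4 in control 2, 42.4 in knockdown 1 and 32.5 in knockdown 2, from 129, 180, 136 and 171 reads. The knockdown libraries of TH lay on either side of the controls, and the log2 change was 0.04 (SE 0.178). DDC had 83.4, 70.6, 71.4 and 59.7 in the same order, with a log2 change of -0.24 (SE 0.143). This was the change farthest from 0 among the 10 genes when all 4 libraries were used, and its groups overlapped. It was -0.10 without knockdown 2 and -0.12 without control 1. DBH had 65.6 and 59.6 in the controls and 58.9 and 50.9 in the knockdown libraries. Both knockdown values were below both control values, with a log2 change of -0.19 (SE 0.143), which was -0.08 without knockdown 2 and -0.29 without knockdown 1. GCH1 had 60.7 and 56.5 in the controls and 48.9 and 54.9 in the knockdown libraries, again without overlap, and a log2 change of -0.16 (SE 0.142), which was -0.09 without knockdown 1 and -0.26 without knockdown 2.

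Of the transporters, SLC18A2 had 55.3 and 52.0 in the controls and 48.6 and 51.5 in the knockdown libraries, a log2 change of -0.09 (SE 0.143). SLC6A2 had 58.9 and 54.3 in the controls and 51.1 and 51.5 in the knockdown libraries, a log2 change of -0.13 (SE 0.142). For both transporters the knockdown values were below the controls by about as much as the controls differed from each other. SLC18A1 had 28.1 and 40.1 in the controls and 31.2 and 41.6 in the knockdown libraries, and here replicate number separated the values more than the group did.

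Of the granule proteins, CHGA had 70.7 and 67.6 in the controls and 64.8 and 60.0 in the knockdown libraries, a log2 change of -0.15 (SE 0.139) without overlap. CHGB had 52.0 and 45.3 in the controls and 35.8 and 48.1 in the knockdown libraries. Its log2 change of -0.18 (SE 0.157) came from knockdown 1, and without that library it was -0.01. NPY had 50.5 and 51.7 in the controls and 58.3 and 48.1 in the knockdown libraries, which enclosed both controls.

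**Figure D2:**
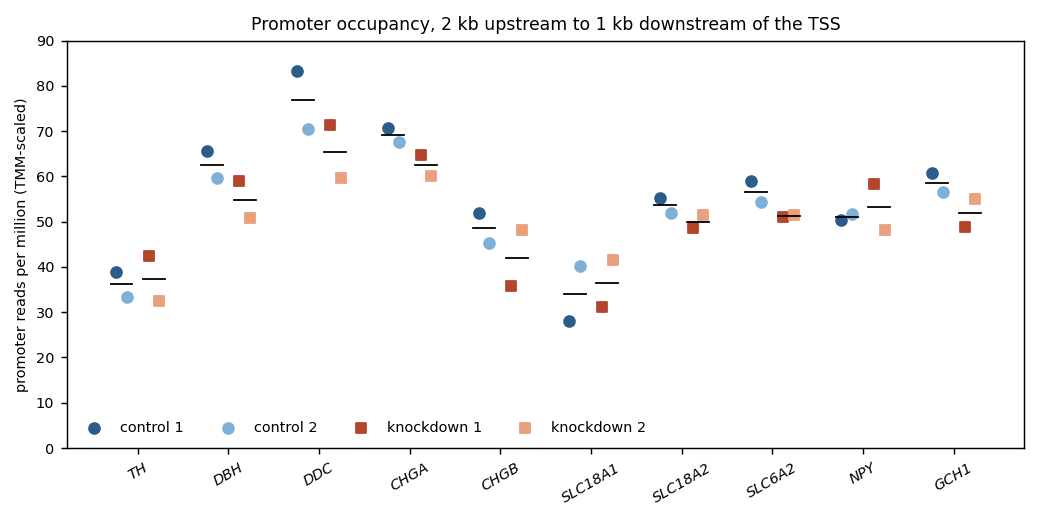
Promoter occupancy of the 10 genes in each library. The y axis is promoter CPM (reads scaled to the summed promoter reads of the library) after TMM scaling. Circles are controls, squares are knockdown libraries and lines are group means. The 2 groups do not overlap at DBH, CHGA, SLC18A2, SLC6A2 and GCH1, each with the knockdown below the control.

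In direction, 7 of the 10 log2 changes were below 0, as were 50% of all promoters, and their median was -0.14 (-0.00 over all promoters). The groups did not overlap at 5 genes, all with the knockdown lower (15.3% of all promoters), and at none with the knockdown higher (15.0%). In both same-numbered comparisons the knockdown was lower at 6 genes, DDC in addition to these 5 (25.7% of all promoters), and higher at SLC18A1 alone (26.0%). The read level of the surrounding chromatin was described as well. The median 10-kb bin over 1 Mb around each TSS was 0.767 to 1.71 times the genome median, and its log2 change upon knockdown was -0.12 to -0.01 at the 10 genes. The share of all promoters with such a change below 0 was not counted. TH had the surround change farthest below 0 and a promoter change of 0.04. With this level as an offset, an alternative chosen after the data were seen, the median of the 10 was -0.07. That of all promoters moved up as well, from -0.00 to 0.04, and 61.9% of them were then above 0. With a correction for GC content the median of the 10 was -0.13. The part of local read level and of base composition in these changes was not tested further.

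**Figure D3:**
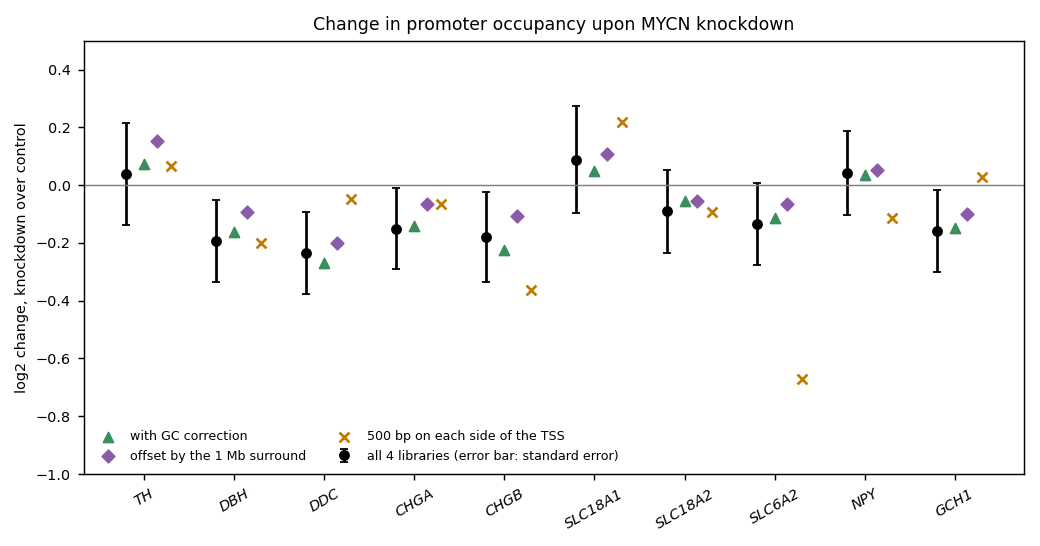
The log2 change in promoter occupancy, knockdown over control, of the 10 genes under 4 ways of computing it. Circles are the edgeR estimate with its standard error, triangles have a GC correction, diamonds are offset by the read level of the surrounding 1 Mb, and crosses use 500 bp on each side of the TSS. The edgeR estimates over the full promoter lie between -0.24 and 0.09, and the SLC6A2 cross at -0.67 stands apart. At SLC6A2 the upstream edge of this 500 bp window lies between the control and knockdown positions of a nucleosome.

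To locate any difference along the promoters, reads were counted in tiles of 500 bp from 2 kb upstream to 2 kb downstream. None of the 80 tiles of the 10 genes passed an adjusted p of 0.05, nor did any of the 156257 tiles tested with edgeR (0%). With an unadjusted p under 0.05 there was 1 tile of the 80, beside 3.14% of all tiles, and DESeq2 called none of all tiles either, with 2629 under an unadjusted p of 0.05. This tile was the 500 bp upstream of the SLC6A2 TSS, which held 41 and 48 reads in the controls and 12 and 19 in the knockdown libraries. Its log2 change was -1.52 (SE 0.394, edgeR adjusted p = 0.99996). The size of this difference depended on where the tile began. A nucleosome at -489 in control 1 and -465 in control 2 fell inside the tile, and its counterpart at -514 in knockdown 1 and -504 in knockdown 2 fell outside it. In tiles displaced by 250 bp, also chosen after the data were seen, the tile from -750 to -251 held 46, 61, 38 and 71 reads, a log2 change of 0.02. The tile from -250 to 249 held 27, 30, 11 and 23 reads, a log2 change of -0.78 (SE 0.466). Within 500 bp on each side of the TSS the SLC6A2 change was -0.67, with an edgeR unadjusted p of 0.016 and an adjusted p of 0.9997. In that setting 743 of 20049 promoters had an unadjusted p under 0.05. This window has the same upstream edge as the first tile. The nucleosome at -489 and -465 was thus counted in the controls, and its counterpart at -514 and -504 was not counted in the knockdown libraries. Among the displaced tiles of the 10 genes 1 of 70 had an unadjusted p under 0.05, beside 4299 of 136978 displaced tiles of all promoters. None of these passed an adjusted p of 0.05. The 1 tile was at DDC from -1250 to -751, with 63, 77, 36 and 32 reads and a log2 change of -0.98 (SE 0.361).

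**Figure D4:**
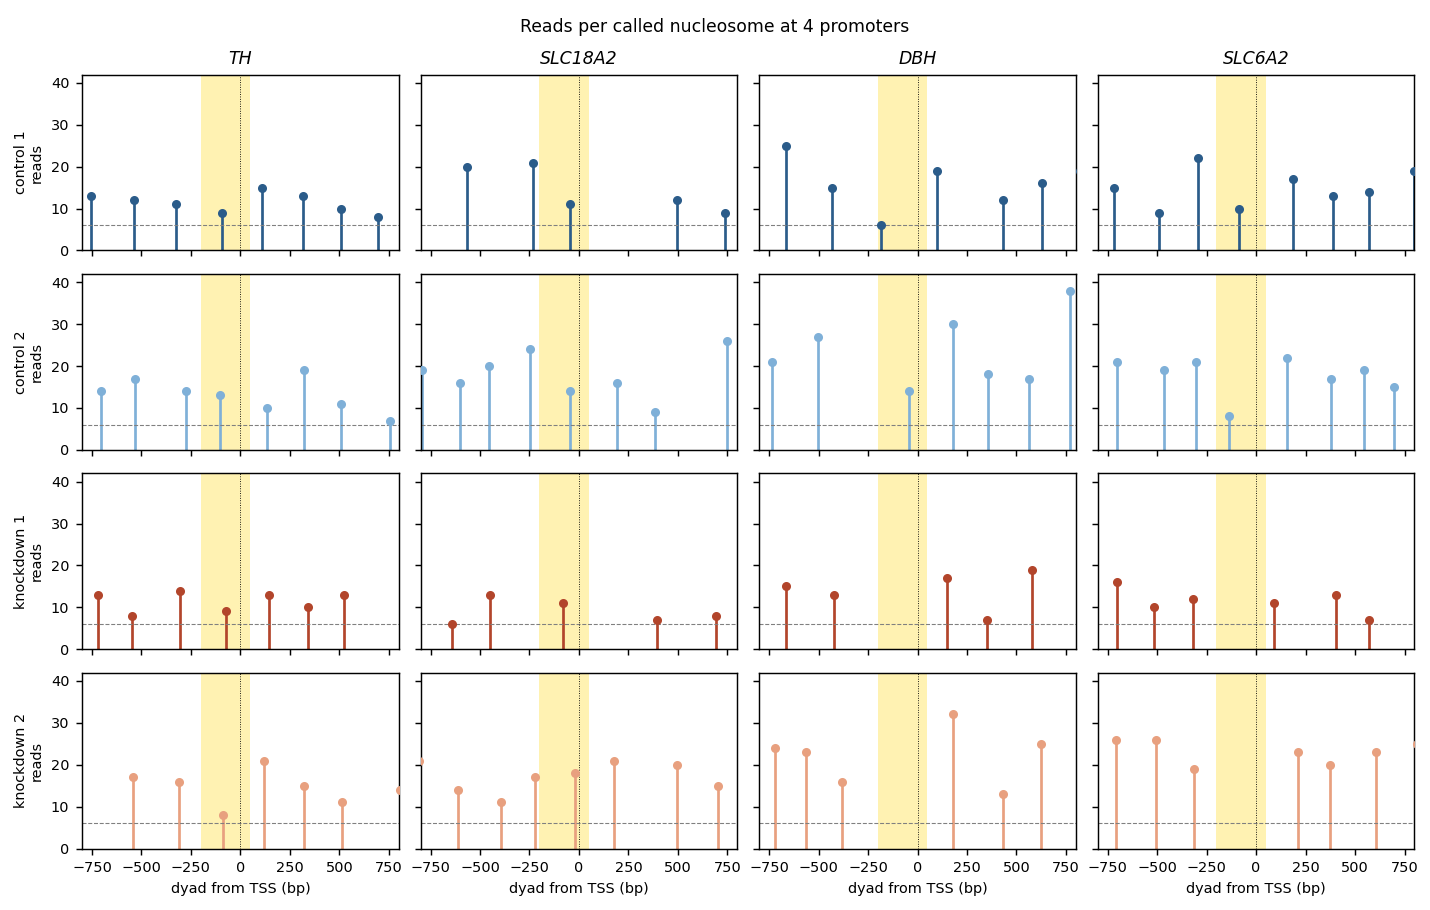
Reads per called nucleosome near the TSS of TH, SLC18A2, DBH and SLC6A2. The x axis is the distance of the dyad from the TSS (bp), the y axis the reads of that nucleosome, each row of panels is a library, the yellow band is the NFR window, and the dashed line is the minimum of 6 reads. TH and SLC18A2 have a stem in the band in all 4 libraries, DBH and SLC6A2 in the 2 controls only.

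Fuzziness, the standard deviation in bp of read-pair midpoints around the called dyad, tells how tightly a nucleosome is placed. Averaged over each promoter with reads as weights, it passed the limma test at 2 of 20101 promoters (0.00995%), and 269 (1.34%) had an unadjusted p under 0.05. None of the 10 genes was among either. SLC18A2 had the change farthest above 0, from 33.2 and 35.5 bp in the controls to 37.6 and 36.6 bp in the knockdown libraries, a difference of 2.71 bp (SE 2.07). Both knockdown values were above both controls, and the share of all promoters with such a separation in fuzziness was not counted. CHGA had the one farthest below 0, with 36.3 and 38.6 bp in the controls and 36.1 and 34.2 bp in the knockdown libraries, a difference of -2.26 bp (SE 2.08). TH and GCH1 differed by -0.05 and 0.04 bp, far less than their libraries differed among themselves.

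Position changes were then compared between every pair of libraries. Mutually closest nucleosomes formed a pair, called fixed at distance 0 and shifted when displaced but still overlapping by at least 30 bp, and the others were lost or gained. Over the 4 pairings of a control with a knockdown library, 84.9% ± 2.02 (SD) of the control nucleosomes at the 10 genes were shifted, 13.8% ± 2.65 were lost and 1.29% ± 0.959 were fixed. For all promoters the shares were 84.7% ± 3.96, 13.9% ± 3.98 and 1.41% ± 0.115. Between the 2 libraries of the same group, read from the shallower to the deeper one, 88.9% at the 10 genes were shifted and 9.64% lost, beside 88.5% and 10.0% at all promoters. With the libraries thinned to equal depth, 84.7% at the 10 genes were shifted and 14.1% lost within a group, and 82.9% ± 2.71 were shifted and 15.8% ± 2.07 lost between the groups. Shifts were thus about as frequent between libraries of the same group. Which nucleosomes shifted in both kinds of comparison was not counted. Gained nucleosomes were 10.2% ± 1.77 at the 10 genes and 14.1% ± 4.03 at all promoters. The 4 pairings share libraries, so their SD is a description.

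Of the 169 nucleosomes of control 1, 21 (12.4%) had a counterpart within 20 bp in all 4 libraries, beside 13.1% of 311133 nucleosomes at all promoters. By gene there were 5 at CHGA, 3 each at CHGB, SLC18A2 and GCH1, 2 each at TH and NPY, 1 each at DBH, SLC18A1 and SLC6A2, and none at DDC. An upstream nucleosome of CHGA at -1066, -1066, -1062 and -1047 was among the deepest of them. It held 26 and 43 reads in the controls and 17 and 28 in the knockdown libraries. Scaled to the library total, its CPM was 0.176 and 0.177 against 0.115 and 0.117. The groups did not overlap there. Another CHGA nucleosome further upstream, at -1875, -1863, -1857 and -1865, held 0.0880 and 0.0742 CPM in the controls and 0.129 and 0.109 in the knockdown libraries, the opposite direction. Of the 21, 6 had both knockdown levels below both controls (16.8% at all promoters) and 2 had them above (13.9%), and no test was made of single nucleosomes. An NPY nucleosome in an intron lay at 577, 579, 573 and 572 bp and another upstream at -737, -740, -739 and -744, each within 7 bp.

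The base composition of the 10 promoters was mixed. Over the 3-kb window the median GC content was 56.1%, beside 52.5% for all promoters, and the observed over expected CpG ratio near the TSS had a median of 0.724, beside 0.773. GCH1 (0.912), SLC18A2 (0.862), SLC6A2 (0.837), CHGB (0.806) and NPY (0.771) had high ratios. SLC18A1 (0.183), DDC (0.207), DBH (0.303) and TH (0.424) had low ones, and CHGA (0.678) lay between. The 4 genes occupied in every library came from both ends of this range.

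Other genes of the pathway were described from lists of names. In synthesis, cofactor supply and breakdown, none of 10 promoters passed the edgeR test in either direction, with a median log2 change of -0.08, beside -0.00 for all promoters. The 2 with the smallest p, PTS and CYB561, had an edgeR adjusted p of 0.999, as had those named from the other lists. PTS, an enzyme of tetrahydrobiopterin synthesis, had 194 and 301 reads in the controls and 202 and 384 in the knockdown libraries, a log2 change of 0.26. CYB561, which supplies electrons for DBH inside the granule, had 178, 315, 149 and 269 reads, a log2 change of -0.20. None of 5 other transporter promoters passed, and the median was -0.09. SLC18A3, the vesicular acetylcholine transporter, had a log2 change of -0.15 and SLC29A4, a low-affinity monoamine transporter, one of 0.12.

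Among the other granule genes no promoter passed either. For 14 genes of the granule matrix, peptide processing and peptides the median log2 change was 0.05. PENK, the enkephalin precursor, had 173 and 303 reads in the controls and 213 and 311 in the knockdown libraries, a log2 change of 0.20. CPE, the carboxypeptidase that trims peptides in the granule, had one of 0.25, which was 0.07 without knockdown 2 and 0.50 from the most upstream TSS. For 10 exocytosis genes the median was 0.01. RPH3A, a RAB3A effector, had 173, 296, 208 and 344 reads, and both its scaled knockdown levels were above both controls. Its log2 change was 0.28 (SE 0.141), but 0.03 when taken from the most upstream TSS and 0.13 with the window to 2 kb downstream. SNAP25, a component of the fusion machinery, had one of -0.19, but -0.01 from the most upstream TSS.

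The state of the window was then counted in these lists, without a test of the differences between them. It was occupied in all 4 libraries at 5 of 14 granule matrix and peptide genes, 3 of 10 synthesis genes, 2 of 10 exocytosis genes and none of 5 transporters. It was free in all 4 libraries at 6 of 10 exocytosis genes and at 1 gene in each of the other 3 lists. For comparison, 9 of 10 genes used in nearly every cell were free in all 4 libraries and none was occupied in all 4. Of 10 genes of liver, pancreas, blood and muscle, 4 were occupied in all 4 libraries and none was free in all 4, the same counts as for the 10 catecholamine and granule genes. Of 8 adrenergic core transcription factors, among them HAND2 and GATA3, 3 were free in all 4 libraries and none was occupied in all 4. PENK was occupied in both controls and free in both knockdown libraries, and TBX2, named after its state was seen, was the reverse. In promoter occupancy no gene of the 3 comparison lists passed the test, with medians of 0.07, 0.02 and -0.03, and 1 gene of the list used in nearly every cell had an unadjusted p under 0.05.

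**Figure D5:**
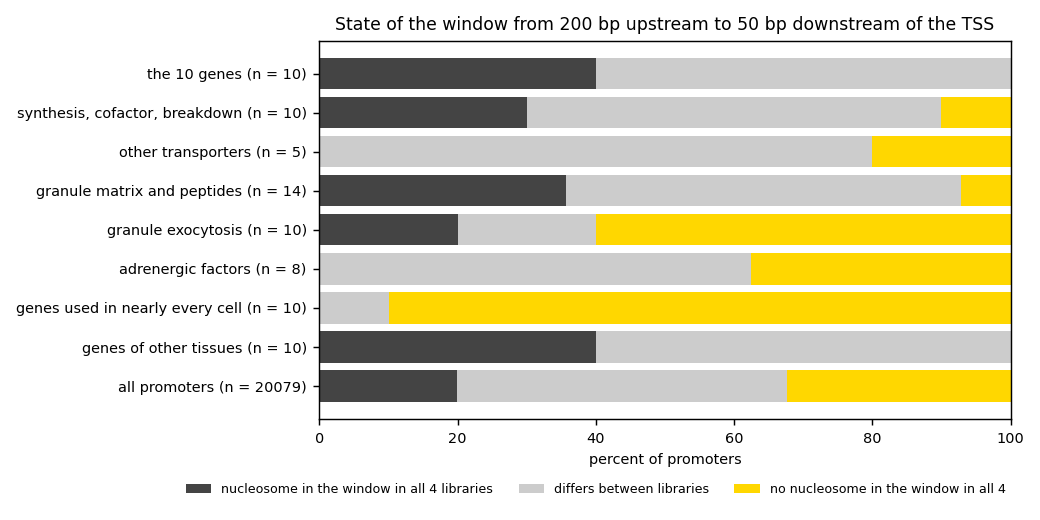
State of the NFR window by gene list. The x axis is the percent of the promoters of a list (n beside its name), split into those with a nucleosome in the window in all 4 libraries, in none, or in some. The 10 catecholamine and granule genes have 4 occupied in all 4 libraries and none free in all 4, and all promoters have 19.9% and 32.3%.

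The mean profile of the 10 genes, as the share of reads in 16 tiles of 250 bp, was compared with that of every promoter. The tile just upstream of the TSS held 5.38% of the reads at the 10 genes and 4.59% at all promoters. The 3 promoters most like the mean profile were PLGRKT (Pearson r = 0.901), H2AC15 (r = 0.821) and TRMT13 (r = 0.818). The 16 tiles share libraries and neighbourhood. These r values were picked as the highest of all promoters compared, whose median r was 0.05. Each of the 10 genes was compared with the mean of the other 9, and r lay between -0.40 and 0.35, with SLC6A2 and GCH1 highest and CHGB and DDC lowest. These values are a description.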

How the data were processed

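Nucleosomes of 4 MNase-seq libraries of BE(2)C cells, control replicates 1 and 2 and MYCN knockdown replicates 1 and 2, were analysed, with groups from the sample titles. Per the study's methods, read pairs were mapped to hg19, proper pairs with a mapping quality over 10 were kept, PCR duplicates were removed, and nucleosomes were called with Genetrack. The methods also say that biological replicates were pooled for further analysis, whereas the deposited files hold 1 set of nucleosomes per library. The submitters' processing notes name CASAVA 1.9, Trim Galore 0.4.4 and Bowtie2 2.2.4. The deposited values are counts of reads (midpoints of read pairs) assigned to each nucleosome, whole numbers from which the authors left out nucleosomes under 6 reads. The deposited fuzziness score is the standard deviation in bp of these midpoints. The study's methods call this read count normalized. The values were taken as unscaled because they are whole numbers from 6 upward whose totals differ between libraries. If they were scaled, reads and CPM here would be relative values and counting errors would differ. Sums include called nucleosomes only, so an absent nucleosome can be one with too few reads.

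TSSs were those of the canonical transcripts of GENCODE v44lift37 (19881 of 20163 genes had one marked), and the last nucleosome of all 24 chromosomes lay within its GRCh37 length. Reads were summed by dyad and tested with edgeR 4.0.16 (quasi-likelihood, TMM, group only, mean of at least 10 reads) in R 4.3.3, and fuzziness with limma 3.58.1, with Benjamini-Hochberg adjustment over all promoters or tiles and a threshold of 0.05. DESeq2 1.42.0, RLE scaling, GC correction, other windows, filters and depths, a replicate block and leaving out each library were alternatives. An exact permutation test of 2 against 2 libraries has 6 arrangements and cannot go below 0.333, so window states and positions were given without a test. The tests were also run on values simulated from the means and spread of these data, after the fits to the data, and the outcome is not given here. The members and lists were chosen with earlier results of these data known. The 10 genes were always named, and of each pathway list the 2 genes with the smallest p. Motifs were searched in the GRCh37 genome, and some items are not reported here.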

Additional observations from a re-analysis of the deposited data

How the results depend on the processing

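No gene of the 10 was called under any setting, and of 332 repeated values for 28 results 307 kept their direction and their side of the threshold. Called promoters stayed at 0 in every setting but the leave-outs, where they were 0 to 1, and called tiles were 0 throughout. Promoters called for fuzziness were 2, but 4 with the replicate block, 0 to 16 when a library was left out and 0 with nucleosomes of 10 or more reads. With a replicate block 0 promoters and 0 tiles were called, with 1175 and 5579 at an unadjusted p under 0.05 (634 and 4899 without it). The deviations of same-numbered libraries correlated with r = 0.294 over promoters and 0.093 over fuzziness. With 2 pairs and no statement that a number marks a batch, the numbers were not taken as pairs, and the block changed no call at the 10 genes.

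Some log2 changes turned sign. With 500 bp on each side of the TSS, NPY was -0.11, GCH1 0.029 and CYB561 0.031, and with the most upstream TSS SLC29A4 was -0.11. Leaving out a library gave TH -0.14 to 0.24 (negative without control 2 or knockdown 1, at -0.08 and -0.14), SLC18A1 -0.16 to 0.39 (negative without control 1 or knockdown 2, at -0.12 and -0.16), NPY -0.088 to 0.19 and SLC29A4 -0.17 to 0.40 (both negative without knockdown 1). Without a turn of sign, DDC ranged from -0.36 to -0.10, DBH from -0.29 to -0.08, GCH1 from -0.26 to -0.09, CHGB from -0.43 to -0.01, SLC18A3 from -0.29 to -0.00 and CPE from 0.07 to 0.38, and without knockdown 2 CHGB was farther from 0 than DDC. With 500 bp on each side DDC was -0.05 and CPE 0.67. The median of the 10 genes was -0.19 to -0.10 in the leave-outs, -0.08 with 500 bp on each side and -0.07 with the offset for the surrounding 1 Mb.

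The window counts were sensitive to depth and rule. Formation was 1 gene, SLC6A2, but 2 when 50% of a nucleosome inside the window sufficed (DBH was added), and 0 with nucleosomes of 10 or more reads and 0 when libraries were thinned to equal depth. When same-numbered libraries were compared as pairs (the replicate block for these counts), formation was 3 and 2 genes and loss 1 and 1. A single pair is a looser rule than agreement of both libraries of each group. The shares of all promoters under these other settings were not counted, so these counts cannot be set beside a background. The shifted share was 72.0% when shifts were limited to under 74 bp, 82.9% at equal depth and 84.6% over same-numbered pairs. Thinning and the minimum of 10 reads keep fewer nucleosomes, and the cause of these differences was not tested. A typical nucleosome held 12 or 18 reads, which limits any statement on the presence of a single one.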
